A study of Mus musculus with 6 samples.

Results

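The genes described here are the 230 mouse genes that carry the name Zfp followed by a number only and that were expressed in activated CD8+ T cells. They were chosen by symbol and by level, as those with a mean of at least 3 TPM (a transcript level per unit of length, scaled to the same total in every library) over all 6 libraries. The table lists 24589 genes, of which 358 have such a symbol. The other 128 lay below the threshold, 13 of them listed at 0 in every library. The cells were wild-type primary mouse CD8+ T cells, isolated from spleen and lymph nodes with magnetic beads, activated through CD3 and CD28, and then kept for 24 h with either TVA (trans-vaccenic acid, a fatty acid of ruminant milk and meat) at 20 µM or DMSO, the solvent control. Each group had 3 libraries, so that TVA and solvent were compared in one cell type, at one dose and at one time after the cells had been activated. Neither the labels nor the methods say whether the 3 libraries of a group came from separate mice or cultures, and the p-values below therefore measure only the spread between these libraries. Sequencing depth is unknown, because TPM values keep no trace of it.

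Most Zfp genes encode C2H2 zinc finger proteins, in which each finger is a short loop held by a zinc ion between a pair of cysteines and a pair of histidines, and rows of fingers read DNA. Many also carry a KRAB box, which binds the corepressor TRIM28 and through it the histone methyltransferase SETDB1 and heterochromatin proteins, and such genes are known for silencing retroelements and imprinted genes. They lie in tandem clusters of related copies on the mouse chromosomes. The Zfp name is older than this knowledge, and it also covers proteins of other kinds, such as Zfp36 (tristetraprolin), which binds AU-rich mRNAs and brings about their decay.

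Judged from the annotated protein of each gene, 131 of the 230 genes had a KRAB box and 99 had none. The median number of C2H2 fingers was 11 with a KRAB box and 7 without. The first finger of 3 genes described below, all with higher levels after TVA, shows the repeat that defines the group. These coding stretches, from GENCODE M21 on GRCm38, lie on the plus strand in the last exon of each gene, at chr17:21508388-21508450 in Zfp53 (exon 5 of 5), chr17:21560453-21560515 in Zfp52 (exon 5 of 5) and chr7:30104749-30104811 in Zfp260 (exon 3 of 3). Capitals mark the codons of the zinc-binding cysteines and histidines.
Zfp53: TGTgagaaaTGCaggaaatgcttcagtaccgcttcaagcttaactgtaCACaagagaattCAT
Zfp52: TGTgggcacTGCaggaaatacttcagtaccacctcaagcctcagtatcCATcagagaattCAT
Zfp260: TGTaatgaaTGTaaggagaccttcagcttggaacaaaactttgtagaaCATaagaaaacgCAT
Zfp52 and Zfp53, which are neighbours on chromosome 17, had the same base at 79.4% of these 63 positions. Zfp260 on chromosome 7 matched Zfp53 at 57.1% and Zfp52 at 47.6%. Because such copies are alike, reads can be shared between them, and for 53 of the 230 genes more than 10% of the 50-base stretches of their transcripts also occurred in transcripts of other genes. Levels of those genes are uncertain, and this is said where such a gene is described in full.

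The promoters were read next, since TVA was studied as a signal that reaches the cAMP response factor CREB, whose site is the cAMP response element (CRE) TGACGTCA. The windows below run from 250 bases before to 50 bases after the annotated start, all on the plus strand (RefSeq, GRCm38.p6), at chr17:21488738-21489037 for Zfp53, chr17:21535289-21535588 for Zfp52, chr7:30094826-30095125 for Zfp260 and chr7:19577037-19577336 for Zfp296, the gene with the largest fall that passed the test. Capitals mark the CRE core TGACG and the GC box GGGCGG on either strand.
Zfp53: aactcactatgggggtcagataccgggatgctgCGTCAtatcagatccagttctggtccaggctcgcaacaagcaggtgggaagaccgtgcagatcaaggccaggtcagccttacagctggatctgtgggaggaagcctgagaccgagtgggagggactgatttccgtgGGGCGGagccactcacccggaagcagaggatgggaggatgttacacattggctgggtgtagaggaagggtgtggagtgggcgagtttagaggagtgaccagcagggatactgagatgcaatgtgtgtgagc
Zfp52: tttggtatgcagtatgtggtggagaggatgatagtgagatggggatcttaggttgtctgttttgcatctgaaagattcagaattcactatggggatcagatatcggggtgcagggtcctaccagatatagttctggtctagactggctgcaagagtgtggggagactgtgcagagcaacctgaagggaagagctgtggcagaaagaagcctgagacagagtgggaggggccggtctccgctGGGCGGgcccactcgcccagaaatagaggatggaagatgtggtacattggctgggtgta
Zfp260: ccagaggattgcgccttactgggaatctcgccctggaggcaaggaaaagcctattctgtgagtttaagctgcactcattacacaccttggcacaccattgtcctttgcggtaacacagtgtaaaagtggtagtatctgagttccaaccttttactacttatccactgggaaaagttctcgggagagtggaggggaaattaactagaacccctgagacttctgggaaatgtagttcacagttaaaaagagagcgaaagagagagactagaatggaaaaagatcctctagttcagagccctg
Zfp296: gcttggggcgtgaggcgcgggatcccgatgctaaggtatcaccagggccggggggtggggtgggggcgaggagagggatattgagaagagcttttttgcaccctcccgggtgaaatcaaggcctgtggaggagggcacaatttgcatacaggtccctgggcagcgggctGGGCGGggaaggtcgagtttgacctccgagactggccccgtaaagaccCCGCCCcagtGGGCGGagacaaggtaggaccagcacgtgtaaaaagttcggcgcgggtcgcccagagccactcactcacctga
Of the 230 genes, 194 had a window in the RefSeq table. The full CRE, searched on both strands, was present in 9 of the 194 (4.64%), in 3.94% of the 8469 tested genes with a window and in 2.03% of all 27025 windows. The core TGACG, which also lies inside the full CRE, was present in 37.6%, 37.5% and 23.1% of the same 3 sets. None of the 9 genes with the full CRE passed the test between TVA and DMSO, and their log2 changes ran from -0.06 (Zfp335) to 0.39 (Zfp72). The GC box was found in 39.3% of the windows of genes with a KRAB box and in 64.9% of those without, against 69.9% of the tested genes.

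Levels of the 230 genes were low for the most part. Their mean ran from 3.02 TPM (Zfp446) to 99.7 TPM (Zfp207), with a median of 10.5 TPM, and none of them was listed at 0 in any library. The genes just inside the threshold were Zfp446 and Zfp760 (3.02 and 3.03 TPM), and those just outside were Zfp708 and Zfp248 (2.98 and 2.95 TPM). The mean over both groups chose the genes, so a few passed the threshold through 1 group alone and their direction follows from the choice. Zfp72, Zfp759, Zfp760 and Zfp934 had a DMSO mean under 3 TPM, and Zfp428, Zfp446, Zfp579 and Zfp580 a TVA mean under 3 TPM. The other 222 genes had both means at or above it. Genes with a KRAB box had a median of 8.25 TPM and those without 13.7 TPM. The 6 highest levels were those of Zfp207 (BuGZ, a partner of the mitotic checkpoint protein Bub3), Zfp330, Zfp146, Zfp36, Zfp52 and Zfp106, from 99.7 down to 64.5 TPM, and of these Zfp52 alone has a KRAB box.

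Cell identity was checked with marker genes. The summed level of the CD8 T cell markers Cd3e, Cd3d, Cd8a, Cd8b1 and Gzmb was 4230 to 4531 TPM with DMSO and 4451 to 4547 TPM with TVA, while Cd4 was at most 4.46 TPM in any library. The 5 myeloid markers summed to 34.2 to 36.7 TPM with DMSO and 45.7 to 48.3 TPM with TVA, and Lyz2 passed the test (log2 change 0.38, adjusted p = 0.0076). The groups of each of these 5 did not overlap, and Csf1r and Adgre1 were at most 1.28 and 0.89 TPM in any library. Of the 3 NK cell markers, Eomes, which CD8 T cells also express, rose (log2 change 0.55, adjusted p = 0.0031), and Ncr1 and Klrb1c stayed at or below 0.43 TPM in every library. The CD4 T cell and red cell markers summed to 4.33 to 5.27 and 11.5 to 24.8 TPM with DMSO and 4.09 to 4.51 and 7.27 to 20.5 TPM with TVA. The part of other cells in the results below was not tested. DMSO replicate 2 stood apart from the other DMSO libraries, since without it 2242 in place of 925 of all genes tested were called. DMSO replicate 1 differed from the rest in its dependence on the GC content of transcripts. The main counts are therefore given also without DMSO replicate 2 and after a correction for GC content.

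With TVA, 185 of the 230 genes had a log2 change above 0, that is a higher mean on the log2(TPM + 1) scale than with DMSO. This is 80.4% of them, against 61.5% of all genes tested and 62.9% of other genes in the same range of mean level. Over the 222 genes with both group means at or above the threshold, 181 had a change above 0, 10 rose and 2 fell, and the median was 0.12. The change of the typical gene was small: the median log2 change was 0.12, against 0.04 over all 10866 genes tested and 0.04 over the 7887 other genes in the same range of mean level. All 230 genes passed the filter on low values. In bulk RNA, fewer cells of one kind and less RNA per cell cannot be told apart. The summed level of the 230 genes was 3336, 3340 and 3329 TPM in the DMSO libraries and 3452, 3557 and 3545 TPM in the TVA libraries, which is 0.333% to 0.334% and 0.345% to 0.356% of all TPM. The TVA sums all lay above the DMSO sums.

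With limma and Benjamini-Hochberg adjustment over all genes tested, 11 of the 230 rose and 2 fell at an adjusted p under 0.05, which is 5.65% of them, whereas 8.51% of all genes tested were called (5.28% higher and 3.23% lower) and 8.84% of the other genes in the same range of level. The share of Zfp genes called was below both. Without regard to the test, the 3 TVA values all lay above the 3 DMSO values in 107 of the 230 genes (46.5%, against 27.3% of all genes tested) and all below in 8 (3.48%, against 11.2%). Leaving out DMSO replicate 2, 35 of the 230 rose and 14 fell (21.3%, against 20.6% of all genes, 11.3% higher and 9.38% lower). Without TVA replicate 1 or TVA replicate 3, limma called none of the 230. Of them, 75 and 44 had an unadjusted p under 0.05 and a change above 0 (17.8% and 13.0% of all genes tested did). Another 4 and 4 had such a p and a change below 0 (7.14% and 7.01% of all genes tested did). Without TVA replicate 2 only Zfp934 was called. Over all genes tested, these 3 fits called 125, 113 and 102 genes, against 925 with all libraries.

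Genes with and without a KRAB box are described apart, and the difference between them was not tested. Their median GC content was 43.8% and 50.9%, and both are given by band of GC content below. Of the 131 genes with a KRAB box, 122 (93.1%, against 61.5% of all genes tested) had a log2 change above 0. Their median log2 change was 0.15. By limma 6 of the 131 rose and none fell, which is 4.58% of them, against 8.51% of all genes tested. At an unadjusted p under 0.05, 61 of the 131 (46.6%) had a change above 0 and 0 a change below, against 21.5% and 10.3% of all genes tested. Of the 99 genes without one, 63 had a change above 0, 5 rose and 2 fell (25 and 11 at an unadjusted p under 0.05, which is 25.3% and 11.1%), and the median was 0.04. These shares, the 7.07% called by limma and the 63.6% with a change above 0 lay near those of all genes tested. Without DMSO replicate 2, 23 of the genes with a KRAB box rose (17.6%) and 0 fell. Of those without, 12 rose (12.1%) and 14 fell (14.1%). In the same fit 11.3% of all genes tested were called higher and 9.38% lower. TVA values lay wholly above DMSO values in 75 of the 131 genes with a KRAB box (57.3%) and in 32 of the 99 without (32.3%). The share over all genes tested was 27.3%, near that of the genes without a KRAB box. Among transcripts of under 42% GC it was 54.2% of genes with a KRAB box and 52.2% of other genes in the same range of level. All 8 genes with TVA wholly below DMSO (Zfp513, Zfp598, Zfp668, Zfp511, Zfp444, Zfp750, Zfp296 and Zfp428) had no KRAB box. They are 8.08% of the 99, against 11.2% of all genes tested, and the direction of Zfp428 follows from the choice of genes. In each library, the median deviation of the genes with a KRAB box from their 6-library mean was -0.16, -0.02 and -0.06 with DMSO and 0.03, 0.10 and 0.10 with TVA (log2). The 3 TVA medians lay above all 3 DMSO medians, and DMSO replicate 1 lay farthest from the others. In genes without a KRAB box, the DMSO medians (0.004, -0.03 and -0.05) overlapped the TVA medians (0.001, 0.04 and 0.03).

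**Figure D1:**
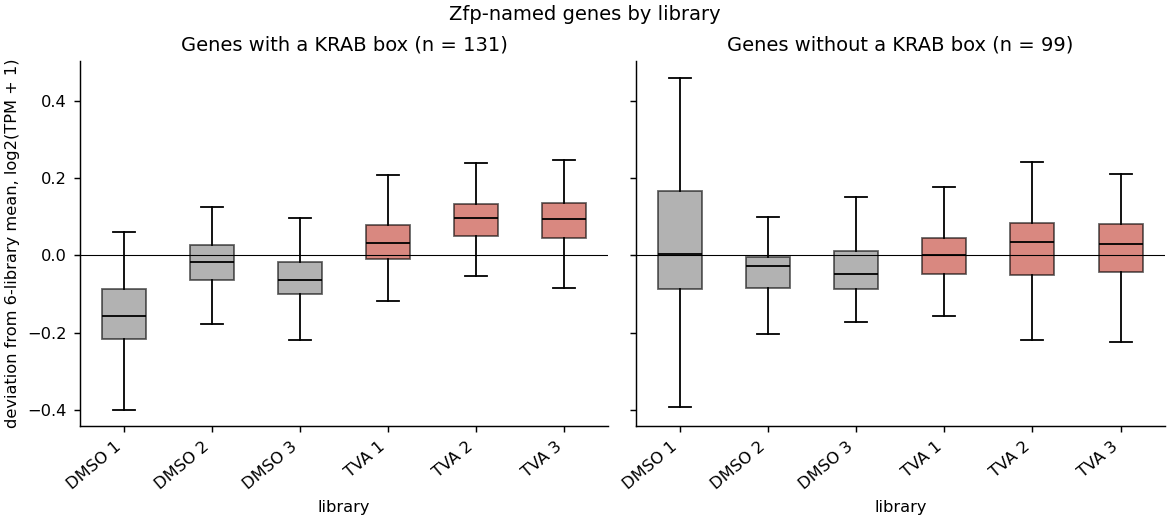
Deviation of each gene from its mean over the 6 libraries on the log2(TPM + 1) scale, by library, for the 131 genes with a KRAB box (left) and the 99 without (right). Lines are medians, boxes run from the lower to the upper quartile, whiskers reach to 1.5 times the box length and single genes beyond them are not drawn. The TVA medians lie above the DMSO medians on the left and overlap them on the right.

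Of the 6 genes with a KRAB box that rose, Zfp52 and Zfp53 had the smallest adjusted p. Zfp52 (chromosome 17, 21535539 to 21562601, plus strand, GRCm38), with 14 fingers, was the most abundant of the genes with a KRAB box. Its level was 53.7, 62.6 and 60.1 TPM in DMSO libraries and 73.2, 78.4 and 76.6 TPM in TVA libraries. The lowest TVA value exceeded the highest DMSO value by more than the spread within either group. The log2 change was 0.37 (SE 0.061, adjusted p = 0.017). Zfp53 (chromosome 17, 21488998 to 21510473, plus strand), with 15 fingers, was at 18.8, 19.5 and 20.1 TPM in DMSO libraries and at 22.6, 23.7 and 23.7 TPM in TVA libraries. Its groups did not overlap either, and the log2 change was 0.25 (SE 0.045, adjusted p = 0.022).

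Zfp934 had the largest rise of the 230 genes, but it entered the 230 through its TVA values alone, since all its DMSO values lay under the 3 TPM threshold. Its values were 2.23, 2.67 and 2.55 TPM in DMSO libraries and 4.07, 3.35 and 4.36 TPM in TVA libraries, and the log2 change was 0.50 (SE 0.095, adjusted p = 0.025). The groups did not overlap, but 30.9% of its 50-base stretches are shared with other genes, Zfp808 foremost, so that reads of the 2 genes may be mixed. Zfp873 was at 3.41, 4.45 and 4.47 TPM in DMSO libraries and 5.66, 5.52 and 5.70 TPM in TVA libraries (log2 change 0.38, SE 0.090, adjusted p = 0.045). DMSO replicate 1 was the lowest library of this gene. Zfp317 was at 15.96, 18.62 and 16.41 TPM in DMSO libraries and 20.1, 20.5 and 21.3 TPM in TVA libraries (log2 change 0.27, SE 0.062, adjusted p = 0.044). Zfp82, the last of the 6 genes with a KRAB box that rose, went from 6.97 ± 0.32 to 8.40 ± 0.27 TPM (SD, n = 3 libraries each, log2 change 0.24, adjusted p = 0.042), and 32.7% of its 50-base stretches are shared, mostly with Gm26920, which overlaps it on the same strand.

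Of the 5 genes without a KRAB box that rose, Zfp260 changed most. Zfp260 (chromosome 7, 30094777 to 30107622, plus strand), a protein of 12 fingers and little else, was at 14.3, 16.7 and 16.7 TPM in DMSO libraries and 20.8, 21.5 and 21.4 TPM in TVA libraries. The TVA values were close to each other and all above the DMSO values. The log2 change was 0.40 (SE 0.064, adjusted p = 0.016). Zfp277, which has few fingers and is known as a partner of the ribosomal protein Rps2 and of polycomb proteins, was at 19.9, 20.7 and 20.6 TPM in DMSO libraries and 22.7, 24.5 and 24.7 TPM in TVA libraries (log2 change 0.22, SE 0.048, adjusted p = 0.036). Zfp207 was at 91.2, 97.6 and 92.1 TPM in DMSO libraries and 103, 108 and 106 TPM in TVA libraries (log2 change 0.17, SE 0.042, adjusted p = 0.046). Zfp146, which lies in the same cluster as Zfp260 and like it consists mainly of fingers, went from 73.0 ± 3.11 to 82.4 ± 2.00 TPM (SD, n = 3 libraries each, log2 change 0.17, adjusted p = 0.050 and just under the threshold). Zfp623, named here after its values were seen, went from 12.7 ± 0.31 to 14.6 ± 0.26 TPM (log2 change 0.19, adjusted p = 0.044). These last 3 changes were the smallest of those called.

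Zfp296 and Zfp750, the 2 genes that fell, have no KRAB box. Zfp296 (chromosome 7, 19577287 to 19580656, plus strand), known from pluripotent stem cells, was at 16.4, 13.9 and 13.1 TPM in DMSO libraries and 9.56, 9.32 and 10.2 TPM in TVA libraries. Every TVA value was below every DMSO value, and the log2 change was -0.52 (SE 0.082, adjusted p = 0.016). A share of 10.8% of its 50-base stretches lies in other genes, mostly in Gemin7, which overlaps it on the opposite strand, and no source used here says whether reads were counted by strand. Zfp750, a regulator of epidermal differentiation, was at 7.55, 6.39 and 6.63 TPM in DMSO libraries and 4.74, 5.59 and 4.90 TPM in TVA libraries. The groups did not overlap, and the log2 change was -0.37 (SE 0.080, adjusted p = 0.036). All 13 calls lost significance when at least 1 library was left out, with a highest adjusted p from 0.086 (Zfp296) to 0.20 (Zfp146).

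**Figure D2:**
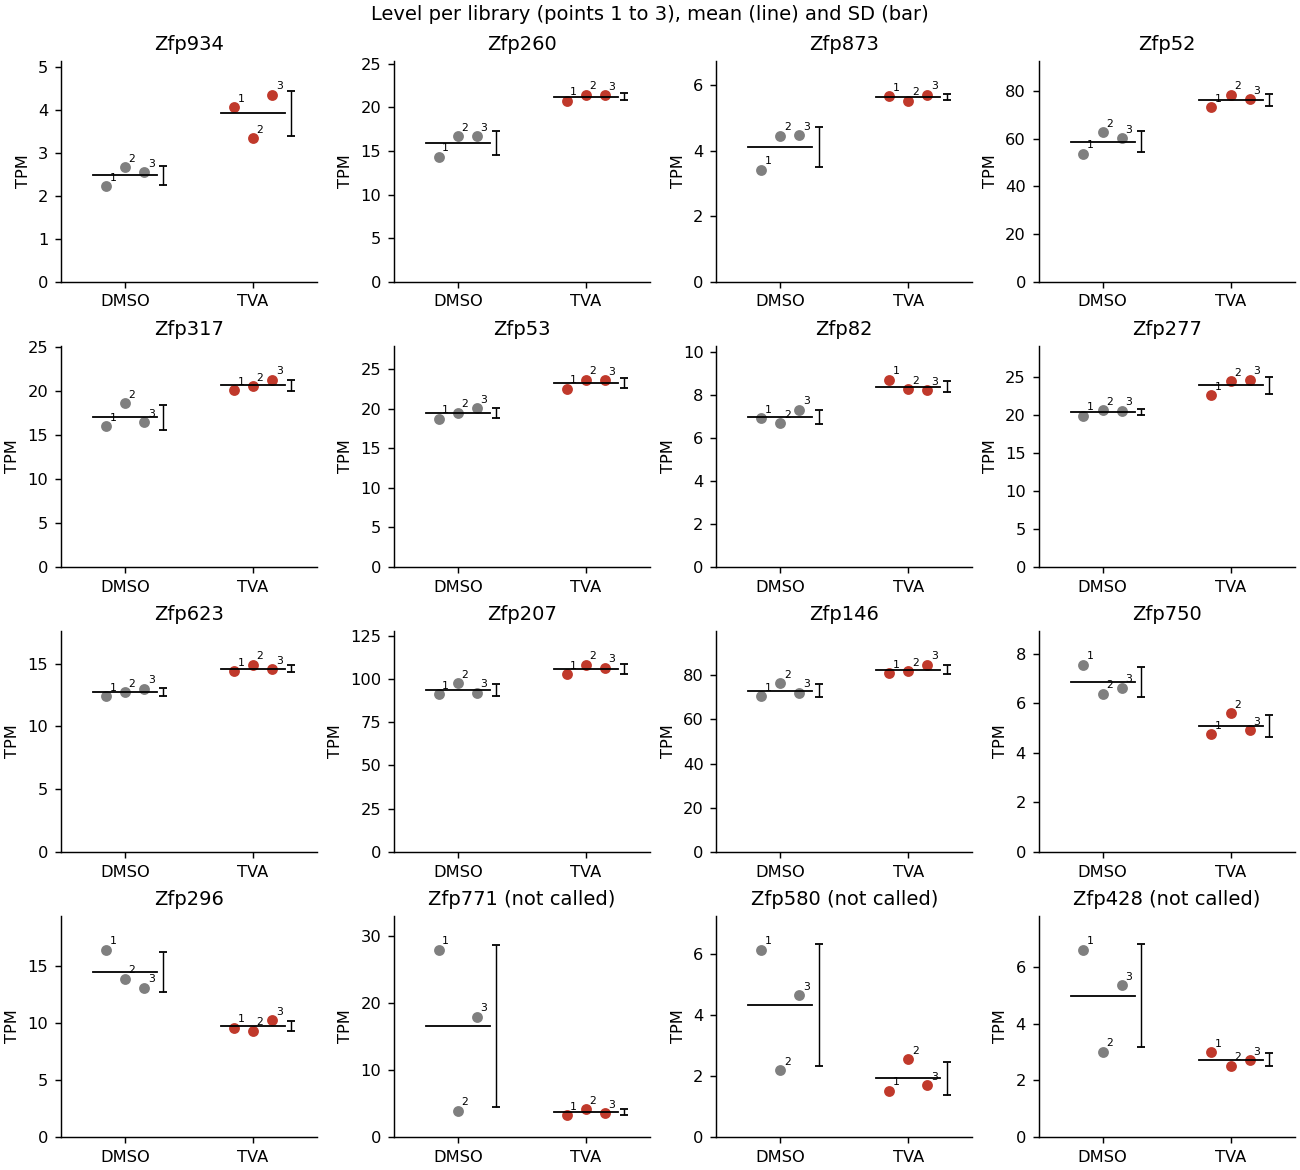
Level in TPM in each of the 6 libraries (points, numbered by replicate) for the 13 genes that passed the test and the 3 genes with the largest fall that did not. Horizontal lines are means and bars are SD (n = 3 libraries per group). The groups do not overlap in any of the 13, whereas DMSO replicate 2 of Zfp771 (3.90 TPM) lies among the TVA values.

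The 3 largest falls did not pass the test, and their DMSO libraries lay far apart. Zfp771 was at 27.9, 3.90 and 17.9 TPM in DMSO libraries and 3.28, 4.15 and 3.53 TPM in TVA libraries (log2 change -1.58, SE 0.56, adjusted p = 0.11). DMSO replicate 2 of this gene lay inside the TVA range and the other 2 DMSO libraries far above it. Zfp580, which passed the 3 TPM threshold through its DMSO values alone, showed the same order, with 6.13, 2.19 and 4.64 TPM in DMSO libraries and 1.52, 2.54 and 1.70 TPM in TVA libraries (log2 change -0.80, adjusted p = 0.10). Zfp428, of which the same is true, was at 6.62, 3.01 and 5.38 TPM in DMSO libraries and 2.99, 2.52 and 2.71 TPM in TVA libraries (log2 change -0.63, adjusted p = 0.092), DMSO replicate 2 being just above the TVA range, and 13.1% of its 50-base stretches are shared. Without DMSO replicate 2, the DMSO library nearest the TVA values in these genes, their limma adjusted p fell to 1.8e-04, 0.0043 and 0.0015. That fit called 20.6% of all genes tested, and the direction of Zfp580 and Zfp428 follows from the choice of genes. In 12 of the 230 genes (5.22%, against 4.99% of all genes tested), DMSO replicate 2 lay inside the TVA range with the other 2 DMSO libraries above it. In 19 (8.26%, against 5.76%), the other 2 lay below it, and 16 of these 19 have a KRAB box.

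Transcript GC content moved with these changes. The 230 genes had a median GC content of 46.2%, the genes with a KRAB box 43.8% and those without 50.9%, against 50.4% for all genes tested. Over the 230 genes, the log2 change had a Spearman correlation of -0.56 with GC content, given as a description, since all genes share the same 6 libraries (-0.40 over 10800 tested genes with a GC value). The same trend was present inside the control group: the difference between DMSO replicates 3 and 1 correlated with GC content at -0.74 over the 230 genes, and that between DMSO replicates 3 and 2 at 0.04. Values are therefore given by band of GC content. Among transcripts of under 42% GC, the median log2 change was 0.17 for 57 Zfp genes and 0.11 for 590 other genes in the same range of level. It was 0.14 and 0.08 from 42% to 46%, 0.12 and 0.07 from 46% to 50%, and 0.07 and 0.04 from 50% to 55%. At 55% and above it was -0.08 for 42 Zfp genes and -0.05 for 2006 others. Under 42%, the median was 0.17 for 48 genes with a KRAB box and 0.15 for 9 without. From 42% to 46% it was 0.15 for 36 with a KRAB box and 0.10 for 18 without. From 46% to 50% it was 0.15 (24 genes) and 0.08 (17 genes), and from 50% to 55% 0.09 (16) and 0.03 (20).

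When the GC trend of each library was removed, the median log2 change of the 230 genes was 0.07, against 0.02 over all genes tested and 0.02 over other genes in the same range of level. In genes with a KRAB box the median was 0.08, with 112 of 131 changes above 0, 4 rising and 0 falling. In those without it was 0.03, with 4 rising and 2 falling. The shift was smaller than in the deposited values, and 36 of the 230 genes changed sign. On this scale 8 of the 230 genes rose and 2 fell, against 5.28% of all genes tested higher and 4.88% lower. Zfp934, Zfp260, Zfp52, Zfp53, Zfp277, Zfp750 and Zfp296 passed the test on both scales. Zfp873, Zfp317, Zfp82, Zfp623, Zfp207 and Zfp146 did not pass after correction, with adjusted p from 0.050 (Zfp873, just above the threshold) to 0.078 (Zfp207). Zfp526, Zfp746 and Zfp553, named after their values were seen, passed only after correction (log2 change 0.26, 0.20 and 0.21, adjusted p = 0.022, 0.015 and 0.013).

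**Figure D3:**
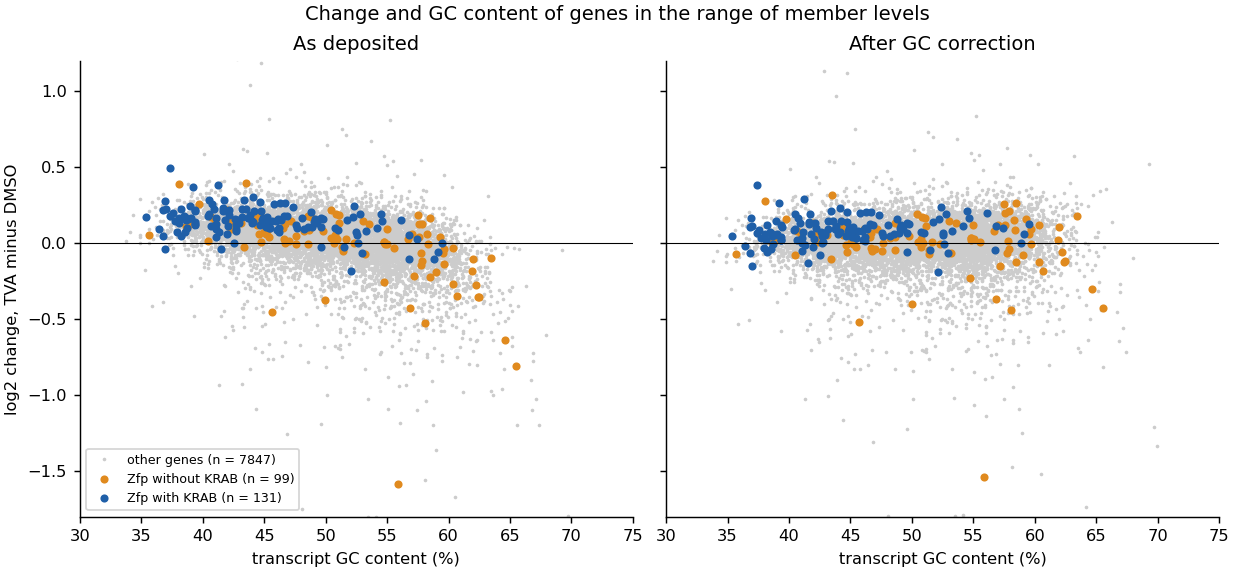
Log2 change between TVA and DMSO against transcript GC content for genes in the range of level of the 230 Zfp genes, as deposited (left) and after the GC trend of each library was removed (right). Blue points are the 131 Zfp genes with a KRAB box, orange points the 99 without and grey points 7847 other genes with a GC value, a few of which lie outside the axes. On the left the values slope downwards (Spearman correlation of -0.56 over the 230 genes), and on the right they do not (-0.07).

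The shift was present at all levels of expression. The median log2 change was 0.11 in the 49 genes from 3 to 5 TPM, 0.15 in the 62 from 5 to 10 TPM, 0.10 in the 74 from 10 to 20 TPM and 0.10 in the 45 from 20 to 100 TPM, against 0.02 to 0.05 in other genes of the same bands. After the GC correction these medians were 0.07, 0.08, 0.06 and 0.04, against 0.02 to 0.03. Genes with 10 or more fingers had lower median GC content and larger median changes than those with 1 to 9, without a further rise at 15 or more. The median was 0.04 in 31 genes with 1 to 4 fingers (GC 50.9%), 0.08 in 72 with 5 to 9 (GC 49.4%), 0.15 in 75 with 10 to 14 (GC 43.7%) and 0.14 in 45 with 15 or more (GC 42.7%). After the GC correction they were 0.0042, 0.05, 0.09 and 0.07. Genes whose stretches are shared with other genes by more than 10% had a median of 0.08 (n = 53), and the others 0.12 (n = 177).

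Other zinc finger genes were set beside them. The 16 tested Zscan and Zkscan genes, whose SCAN domain pairs proteins with each other, had a median log2 change of 0.12, and 2 rose. The 19 Zfp genes with a letter after the number had a median of 0.11, and 1 rose. The 34 Zbtb genes, with a BTB domain before the fingers, had 0.04, with 1 rising and 2 falling. The 13 Klf and Sp genes (2 rose), the 16 Zc3h genes, which bind RNA (2 fell), and the 5 Ikaros family genes (none called by limma, and 2 at an unadjusted p under 0.05, as were 21.5% of all genes tested with a change above 0 and 10.3% below) had medians of 0.04, 0.05 and 0.03. After the GC correction the median was 0.13 in the Zscan and Zkscan genes, with all 16 changes above 0, 0.02 in the Zfp genes with a letter, 0.00065 in the Zbtb genes, 0.05 in the Klf and Sp genes, 0.02 in the Zc3h genes and -0.01 in the Ikaros genes. Over all genes tested, 5.28% were called higher and 3.23% lower. With families this small, the counts called are not read as a result about a family. The difference between these families was not tested.

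Neighbouring genes were compared next, with genes of the 230 at most 200 kb apart taken as one cluster when there were at least 4. The largest, on chromosome 17 from 21383748 to 22456689, held 15 of the 230 genes, all with a KRAB box. Of these, 14 had a change above 0 (median 0.17, from -0.04 for Zfp946 to 0.37 for Zfp52), and Zfp52 and Zfp53 passed the test. The cluster on chromosome 7 from 29768552 to 30169750 held 12 genes, 8 with a KRAB box. Of these 11 had a change above 0 (median 0.15), and Zfp82, Zfp260 and Zfp146 passed the test. All 11 genes of the chromosome 13 cluster (67121660 to 67755228) had a KRAB box and a change above 0, from 0.12 to 0.28, and none passed the test. A cluster of 5 genes on chromosome 7 (4915217 to 5053723), namely Zfp628, Zfp579, Zfp524, Zfp865 and Zfp580, had no KRAB box and no change above 0, with a median of -0.28, and none passed the test. Of these, Zfp579 and Zfp580 had a TVA mean under 3 TPM, so their direction follows from the choice of genes. The same is true, through a DMSO mean under 3 TPM, of Zfp760 on chromosome 17 and Zfp759 on chromosome 13. Median GC content was 38.6%, 48.3%, 41.6% and 62.5% in these 4 clusters, and after the GC trend was removed the medians were 0.06, 0.09, 0.08 and -0.06. These 4 were picked from a longer list. Clusters of 6 genes on chromosome 6 (from 47835661) and chromosome 7 (from 127233061 and from 24081924) each had 4 changes above 0. Their medians were 0.05, 0.04 and 0.13. In the remaining clusters, of 4 or 5 genes, most or all changes lay above 0.

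**Figure D4:**
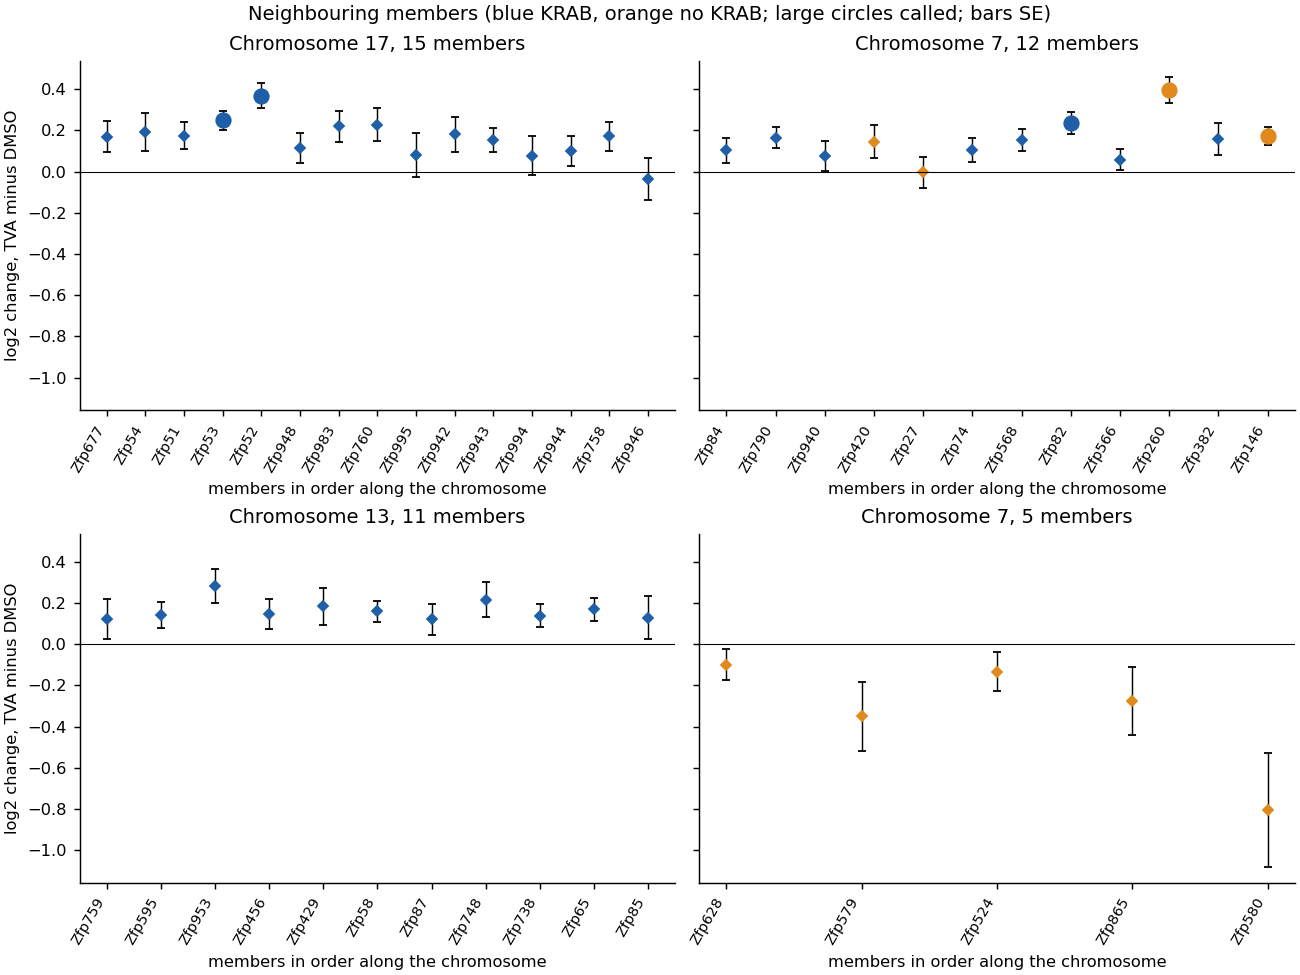
Log2 change between TVA and DMSO, with SE, for the genes of 4 clusters in their order along the chromosome. Blue marks genes with a KRAB box, orange genes without, and large circles the 5 genes that passed the test. In the first 3 clusters only Zfp946 and Zfp27 lie at or below 0, and all 5 genes of the last cluster lie below. The direction of Zfp579, Zfp580, Zfp759 and Zfp760 follows from the choice of genes, since 1 of their group means lay under 3 TPM.

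A list of Zfp genes with a known function was read on its own, in order of what the proteins do. Of its 31 tested genes, 21 had a change above 0 (67.7%, near the share of all genes tested, median 0.06), and Zfp207 was the only one to pass the test. It did not pass after the GC correction (limma adjusted p = 0.078). Zfp36 was at 69.7, 72.4 and 69.3 TPM in DMSO libraries and 70.1, 73.4 and 67.6 TPM in TVA libraries, a log2 change of -0.002 (SE 0.043, adjusted p = 0.98). Its groups overlapped fully. Its relatives Zfp36l1 and Zfp36l2, which act on mRNA in the same manner but fall outside the naming rule, had log2 changes of -0.12 and -0.36 (adjusted p = 0.19 and 0.11). Zfp36l2 was at 92.1, 61.2 and 81.7 TPM in DMSO libraries and 59.8, 60.1 and 60.4 TPM in TVA libraries, with DMSO replicate 2 again near the TVA values.

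Zfp622, which takes part in the maturation of the large ribosomal subunit, was at 58.4, 33.4 and 48.6 TPM in DMSO libraries and 32.0, 33.4 and 33.7 TPM in TVA libraries (log2 change -0.45, SE 0.17, adjusted p = 0.12). Zfp593, which has a like role, was at 46.2, 28.9 and 44.0 TPM in DMSO libraries and 30.2, 29.1 and 26.8 TPM in TVA libraries (log2 change -0.43, adjusted p = 0.12), and 66.9% of its 50-base stretches are shared, mostly with E130218I03Rik on the opposite strand. In both genes DMSO replicate 2 lay within the TVA range. Zfp598, a sensor of collided ribosomes, was at 62.2, 52.2 and 49.3 TPM in DMSO libraries and 48.6, 47.5 and 46.7 TPM in TVA libraries (log2 change -0.19, adjusted p = 0.16). Its groups did not overlap, and the change was -0.07 after the GC trend was removed.

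Zfp445, which protects imprints, was at 39.3, 42.9 and 43.7 TPM in DMSO libraries and 44.8, 48.4 and 47.6 TPM in TVA libraries (log2 change 0.16, adjusted p = 0.095). Zfp568, which silences a placental transcript of Igf2, and Zfp809, which silences retroviruses, had changes of 0.15 and 0.10 (adjusted p = 0.10 and 0.18). The groups did not overlap in any of these 3 genes. Zfp638, which acts with the HUSH complex on retroviral DNA, was at 28.9 ± 0.63 TPM with DMSO and 32.2 ± 1.48 TPM with TVA (SD, n = 3 libraries each, log2 change 0.15, adjusted p = 0.077). Zfp644, a partner of the methyltransferases G9a and GLP, had a change of 0.07 (adjusted p = 0.35).

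Apart from Zfp207, no activator or other regulator of the list passed the test. Zfp143, an activator of many promoters, Zfp148 and Zfp281, which bind GC-rich promoters, and Zfp410, which activates Chd4, had log2 changes of 0.16, 0.12, 0.14 and 0.15 (adjusted p from 0.094 to 0.11), and in each of the 4 the TVA values lay above the DMSO values. Zfp830 (0.18, adjusted p = 0.056) and Zfp263 (0.14, adjusted p = 0.064) came closest to the threshold. Zfp335, which is needed for T cell development, was at 22.8, 18.6 and 18.7 TPM in DMSO libraries and 19.5, 18.4 and 19.3 TPM in TVA libraries, and its change of -0.06 became 0.06 after the GC trend was removed (19.2% of its stretches are shared, mostly with Pcif1). Zfp609, a partner of the cohesin loader Nipbl, and Zfp592 and Zfp687, which act together with Zmynd8, had changes of 0.001, 0.01 and 0.03, each smaller than its SE. Zfp91, Zfp217, Zfp326, Zfp318, Zfp292, Zfp131, Zfp384, Zfp827, Zfp706, Zfp219 and Zfp106 had changes from -0.18 to 0.11, none past the test, with adjusted p from 0.15 to 0.82. Zfp72, the third largest rise of the 230, had a DMSO mean under the 3 TPM threshold and was at 2.11, 3.03 and 2.62 TPM in DMSO libraries and 3.51, 4.05 and 3.46 TPM in TVA libraries (log2 change 0.39, adjusted p = 0.060).

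The partners through which KRAB boxes act were taken from a list of 22 names, of which 20 were tested, 2 rose and none fell by limma (10.0%, near the 8.51% of all genes tested), and 6 and 0 did at an unadjusted p under 0.05 (21.5% and 10.3% of all genes tested did). Setdb1, the histone methyltransferase of the complex, was at 33.7, 34.6 and 32.8 TPM in DMSO libraries and 38.3, 39.1 and 38.9 TPM in TVA libraries (log2 change 0.20, SE 0.039, adjusted p = 0.028). The groups were clearly apart. Cbx5, the heterochromatin protein HP1 alpha, was at 56.6, 65.0 and 62.7 TPM in DMSO libraries and 70.2, 73.8 and 73.9 TPM in TVA libraries (log2 change 0.24, SE 0.056, adjusted p = 0.044). Mphosph8, of the HUSH complex, had a change of 0.24 and narrowly missed the threshold (adjusted p = 0.051). Trim28, which binds the KRAB box itself, was at 220, 196 and 176 TPM in DMSO libraries and 198, 204 and 199 TPM in TVA libraries, a change of 0.03 (SE 0.075, adjusted p = 0.82), and its level was well above that of any of the 230 Zfp genes. Dnmt1 and Chd4 had changes of 0.07 and -0.07 (adjusted p = 0.34 and 0.27). After the GC trend was removed, Setdb1 passed the test (adjusted p = 0.023) and Cbx5 lay just above the threshold (adjusted p = 0.050).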

How the data were processed

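Bulk RNA-seq libraries, 3 with DMSO and 3 with TVA, were grouped by sample title. The authors deposited one table of TPM per gene symbol (2 decimals), and their processing notes name STAR, RSEM and mm10. Versions, filters and annotation are not given in the sources used here. TPM values keep no depth, so counting error is unknown.

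The 10866 genes that reached 1 TPM in 3 or more libraries entered the test on log2(TPM + 1), which understates changes of low genes, with limma 3.58.1 in R 4.3.3 (trended prior variance, two-sided, Benjamini-Hochberg over all genes tested, threshold 0.05, no replicate block). The 230 members (Zfp plus digits, mean of at least 3 TPM) and the gene lists were chosen with earlier results of these data known. To correct for GC content, the deviations of all genes in a library were fitted against transcript GC with loess (span 0.5) and the fitted value was taken off (GC known for 99.39% of genes tested). Fingers were counted in GENCODE M21 proteins as Cys, 2 to 4 residues, Cys, 12 residues, His, 3 to 5 residues and His. A KRAB box needed at least 30% identity to an A-box consensus.

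Genes named were the called members (if over 12, the 8 largest rises and 8 largest falls), the 6 highest levels, the 3 largest rises and falls, the 2 nearest each side of the 3 TPM threshold, tested genes of the list with known roles, and from other lists the called genes and up to 4 more. Alternatives were another pseudocount, filters, scalings, limma with an untrended prior, the replicate number as a block, the GC correction, other membership thresholds, omission of each library and, chosen after seeing the data, the GC correction without DMSO replicate 2 and omission of genes with shared sequence. Figures were drawn with matplotlib 3.10.9.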

Additional observations from a re-analysis of the deposited data

How the results depend on the processing

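The median log2 change of the 230 genes stayed above that of all genes tested under each alternative, from 0.090 to 0.14 when 1 library was left out. It was 0.065 after the GC correction, with or without the block, and 0.079 after the GC correction without DMSO replicate 2. The counts of calls moved more. Against 11 rises, 3 were called over all genes above 0 TPM, and 4 each with median-of-ratios scaling and quantile normalization. With falls, these are 1.74%, 2.61% and 2.61% of the 230, against 2.95%, 6.94% and 7.13% of all genes in the same fits. At a mean of at least 10 TPM only 119 of the 230 were tested, and 7 rose. With falls, 6.72% of the 119 were called, against 8.04% of all genes in that fit. Against 2 falls, 1 was called over all genes above 0 TPM, at a mean of at least 10 TPM and with at most 10% shared sequence. Zfp750 lies under the mean of 10 TPM and Zfp296 over the limit on shared sequence, so neither could be called there. Leaving out 1 library gave 0 to 35 rises and 0 to 14 falls, the highest without DMSO replicate 2 and the lowest without TVA replicate 1 or 3, and without DMSO replicate 3 gave 2 and 1. Of all genes tested, 20.6% were called without DMSO replicate 2, 2.71% without DMSO replicate 3, and 1.15% and 1.04% without TVA replicates 1 and 3. The GC correction without DMSO replicate 2 gave 35 rises and 14 falls. This is 21.3% of the 230, below the 26.5% of all genes called in that fit. The cause was not tested.

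The replicate numbers share no stated origin, and the deviations of same-numbered libraries correlated at 0.157, 0.035 and -0.077, too little for a pairing by number. With the replicate number as a block, 2 of the 230 genes rose and 1 fell, and with the block and the GC correction 5 rose and 2 fell. These are 1.3% and 3.04% of the 230, against 2.01% and 5.04% of all genes tested. Over all genes the block lowered the calls from 925 to 218.

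Over 66 named genes and 1042 alternative values, 849 kept their direction and side of the threshold, 124 lost their call, 30 gained one and 39 changed sign. The sign changed in 12 Zfp genes and Trim28, none of them called. After the GC correction, with or without the block, the change was 0.023 for Zfp36, -0.024 for Zfp330, -0.0065 for Zfp318, -0.078 for Zfp292, 0.063 for Zfp335, -0.0066 for Zfp609 and 0.025 for Zfp219. Median-of-ratios scaling gave -0.011 for Zfp292, -0.027 for Zfp609, -6.9e-04 for Zfp687, -0.017 for Zfp592 and -0.0023 for Trim28, and quantile normalization -0.012 for Zfp292, -0.016 for Zfp609 and -0.014 for Zfp592. The GC correction without DMSO replicate 2 gave 0.055 for Zfp36, -0.047 for Zfp326, -0.095 for Zfp292, -0.0095 for Zfp131, -0.0074 for Zfp644 and 0.068 for Zfp335. Leaving out 1 library gave ranges that span 0 for Zfp36 (-0.032 to 0.026), Zfp292 (-0.0044 to 0.056), Zfp335 (-0.11 to 0.030), Zfp609 (-0.025 to 0.019), Zfp687 (-0.016 to 0.051), Zfp592 (-0.036 to 0.063) and Trim28 (-0.052 to 0.11).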
